A study of Drosophila melanogaster with 3 samples.

Results

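The summits described here are sites where pad-GFP was recovered from deep inside the introns of protein-coding genes. The data are chromatin immunoprecipitation followed by sequencing (ChIP-seq) from whole adult female Drosophila melanogaster, in 3 biological replicates of 1 group. The strain is a transgenic line in which the zinc finger protein pad is expressed as a fusion to eGFP from an insertion, and the precipitation used an antibody against GFP. There is no second genotype, treatment or time, no untagged fly among the samples analysed here, and the flies' age, the extent of the insertion and the number of flies pooled per replicate were not stated by the labels. Chromatin was sonicated to a size range of 200 to 800, and peaks were called by the authors against a control alignment.

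A distal intronic summit was defined as the highest point of a peak that passed the authors' threshold on the irreproducible discovery rate (IDR, a measure of how well replicates agree on a peak's rank), that lay more than 1000 bp from every annotated start site, inside the span of a protein-coding gene and outside all annotated exons. By this rule 1244 of the 6659 IDR summits were distal intronic (18.7%, exact binomial 95% interval 17.8 to 19.6%). They fell in 1077 merged regions, of which 149 held more than 1 of these summits, so that neighbouring summits can share a region and are not independent. All 1244 lay in an annotated intron of a coding transcript, and 67 lay within more than 1 coding gene. The other IDR summits were 3262 within 250 bp of a start site (promoter summits), 1343 outside exons that lay over 250 and up to 1000 bp from one (near summits), 354 distal ones in no gene, 432 in exons and 24 in noncoding genes only.

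The zinc finger protein pad is known for repressing achaete and scute, proneural genes that start the formation of sensory bristles. Introns of fly genes are transcribed and then spliced out, and the long ones carry many enhancers, which are stretches of DNA that bind transcription factors and act on a promoter at a distance. First introns in particular are known for such elements. A whole fly mixes many cell types, so a strong site in few cells and a weak site in many cells cannot be told apart, and a site in an intron need not act on the gene that holds it.

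The sequences at the strongest of these summits show what pad-GFP was recovered with. Each line gives a summit with the 50 bp on either side of it, from the plus strand of dm6 (Release 6 of the fly assembly, from RefSeq), and capitals mark the words GAGAGAG, GAGCGAGA, AGGGGAAA, AAGGGGAA and GAGGGGAA on either strand. The first 6 are the strongest members on the arms from which sequence is shown, which leaves out the 6th strongest of all, in ken. They come from introns of crp (2L:16269500-16269600 and 2L:16284809-16284909), hth (3R:10622273-10622373), ssp3 (2L:18936244-18936344), Clk (3L:7772270-7772370) and Ggt-1 (X:18506997-18507097).
crp, strongest: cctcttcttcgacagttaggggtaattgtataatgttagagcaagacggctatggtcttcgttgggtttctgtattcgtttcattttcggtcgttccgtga
crp, second: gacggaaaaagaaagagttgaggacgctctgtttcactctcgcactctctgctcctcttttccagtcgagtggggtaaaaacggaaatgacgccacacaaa
hth: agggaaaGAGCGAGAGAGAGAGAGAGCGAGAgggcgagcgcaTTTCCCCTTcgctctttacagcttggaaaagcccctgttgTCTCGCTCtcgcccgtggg
ssp3: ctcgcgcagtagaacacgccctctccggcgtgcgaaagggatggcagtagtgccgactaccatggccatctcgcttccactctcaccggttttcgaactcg
Clk: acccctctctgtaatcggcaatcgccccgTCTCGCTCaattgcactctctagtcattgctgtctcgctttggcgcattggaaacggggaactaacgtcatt
Ggt-1: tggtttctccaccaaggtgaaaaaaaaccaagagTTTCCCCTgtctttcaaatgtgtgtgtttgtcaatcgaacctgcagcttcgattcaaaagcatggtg

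The next windows are the strongest further ones on the arms shown that hold GAGAGAG, from Ubx (3R:16703063-16703163), a second site of hth (3R:10535896-10535996) and InR (3R:21605615-21605715). Among the motifs counted, GAGAGAG had the largest difference in percentage points between the members of the IDR list and their flanks. AGGGGAAA was higher by ratio, and also in percentage points in the mean of the replicates (3.95 against 3.43). The last pair, from Lar (2L:19590760-19590860) and klar (3L:489504-489604), holds AGGGGAAA and was added after its values were seen.
Ubx: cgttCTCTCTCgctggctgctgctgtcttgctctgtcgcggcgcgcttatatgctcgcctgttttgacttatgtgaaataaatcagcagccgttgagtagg
hth, second site: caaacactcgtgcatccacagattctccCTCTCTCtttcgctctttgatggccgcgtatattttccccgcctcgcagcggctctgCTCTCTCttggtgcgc
InR: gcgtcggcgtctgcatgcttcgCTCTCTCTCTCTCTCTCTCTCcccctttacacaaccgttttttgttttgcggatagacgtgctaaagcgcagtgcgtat
Lar: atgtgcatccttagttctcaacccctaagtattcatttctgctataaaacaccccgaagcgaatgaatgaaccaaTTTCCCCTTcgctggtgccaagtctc
klar: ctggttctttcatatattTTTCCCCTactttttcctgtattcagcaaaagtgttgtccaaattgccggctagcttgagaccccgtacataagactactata

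The hth window carried both kinds of word, a GA repeat on the plus strand and the run of G bases on the minus strand. The windows of crp and ssp3 held none of the 5 words. The words are descriptions of these windows, and no match says only that these letters are not there.

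The position rule used neither signal nor replicate ranks, but it was applied to the IDR list, which was itself cut by signal and by agreement of the replicates. Both are therefore given as descriptions of peaks that had already passed. Signal, the authors' own measure of peak strength, has no stated scaling, and it is used here to rank peaks within a list. The 2 strongest distal intronic peaks both lay in crp, the gene of a leucine zipper factor of the basic helix-loop-helix (bHLH) family. The peak 2L:16268865-16270110 had a signal of 49564 and was 5th by signal of the 6659 IDR peaks. It ranked 9, 3 and 7 in replicates 1, 2 and 3 (mean 6.33 ± 3.06, SD, n = 3) and lay in the second intron, 7409 bp from the nearest start site. The peak 2L:16284137-16285633, in the first intron, had a signal of 36446 and ranked 14, 8 and 10 (10.7 ± 3.06). The ranks of these crp peaks overlapped in the 3 replicates, although the first was the stronger within each replicate.

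The next ones lay in hth, ssp3 and Clk. In hth, whose product is a homeodomain partner of Hox proteins, the peak 3R:10621848-10622819 lay in a first intron of 24823 bp and ranked 10, 37 and 18 in replicates 1, 2 and 3. In ssp3 the peak 2L:18935853-18936977 ranked 17, 25 and 17. In Clk, which encodes the bHLH activator of the circadian clock, the peak 3L:7771874-7772725 lay in the first intron, 3283 bp from the start site, and ranked 21, 23 and 28. All 3 were thus among the first 37 peaks of every replicate.

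Further down, ken encodes a zinc finger repressor with a BTB domain, and its first intron peak 2R:23871100-23873888 ranked 34, 30 and 35. The peak X:18506456-18507436 in the second intron of Ggt-1, a gamma-glutamyl transpeptidase gene, ranked 38, 54 and 37. Its nearest start site, 1642 bp away, was that of Wnt5, a secreted signalling protein, rather than that of Ggt-1 itself. The first intron of Tlk, which encodes a kinase of chromatin assembly, held the peak X:3740733-3744321 with ranks of 56, 45 and 61.

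The remaining strong hosts were of mixed function. The peak 2R:13821829-13823028 in fl(2)d, a component of the complex that methylates adenosine in RNA, ranked 64, 57 and 47. The peak 3L:11491285-11493925 in chrb, an inhibitor of TOR signalling, ranked 53, 47 and 66. The peak 2R:7352117-7352956 in Dscam1, a cell surface receptor of neurons with very many splice forms, ranked 29, 85 and 44. The Dscam1 peak thus stood higher in replicates 1 and 3 than in replicate 2, as did the hth peak. The same held for the Hox gene Ubx, where the peak 3R:16702683-16703486 lay in an intron of 51488 bp, 17014 bp from any start site, and ranked 50, 118 and 59.

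In Trl, the gene of GAGA factor itself, the peak 3L:14757629-14760588 ranked 125, 64 and 112. In sima, the fly hypoxia-inducible factor, the peak 3R:30100324-30101150 ranked 133, 73 and 114. In pico, which encodes an adaptor of the actin cytoskeleton, the peak X:19846685-19847659 ranked 145, 81 and 122. These 3 showed the opposite order, with replicate 2 placing them highest.

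**Figure D1:**
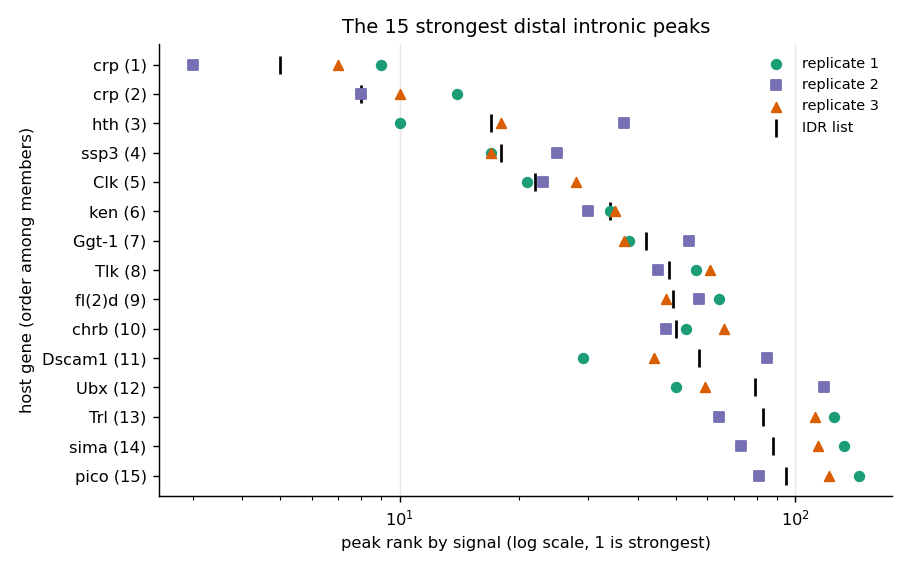
Rank of the 15 strongest distal intronic peaks by signal (x, log scale, 1 is strongest) in each of the 3 replicates (points) and in the IDR list (bars), 1 row per peak with its host gene. Both crp peaks rank within the first 14 of every replicate, and the spread between replicates is wide for Dscam1, at 29, 85 and 44.

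Distal intronic peaks were mostly of moderate strength. Their median signal was 452 (order-statistic 95% interval 435 to 474), in a range of 264 to 49564, against 500 at promoters (487 to 517), 554 at near summits (521 to 592) and 464 at distal intergenic summits (436 to 539). They made up 17 of the first 100 IDR peaks, 151 of the first 1000 (15.1%, exact binomial 95% interval 12.9 to 17.5%) and 352 of the last 1659 (21.2%, 19.3 to 23.3%). Median ranks in replicates 1, 2 and 3 were 3459, 3285 and 3528 for distal intronic peaks and 2762, 3185 and 3092 for promoter peaks. Distal intronic peaks thus ranked lower than promoter peaks in all 3 replicates, by 697, 100 and 436 ranks (mean 411 ± 299, SD, n = 3). The exact sign-flip permutation test over replicates gave a two-sided p of 0.25, the smallest that 3 replicates allow. Against near summits the difference was 1052 ± 83.2 ranks (SD, n = 3; p = 0.25, the same exact test), and against distal intergenic peaks it was 478, -197 and 506, so that its sign differed between replicates.

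In the replicate lists, which do not depend on IDR, the share was steady. Among the top 5000 peaks of replicates 1, 2 and 3, 902, 907 and 853 summits were distal intronic, which is 18.04, 18.14 and 17.06% (mean 17.7% ± 0.60, SD, n = 3). The share was 16.2% ± 1.08 in the top 3000 and 22.1% ± 1.23 in the top 10000 (SD, n = 3), so that it grew as weaker peaks were let in. Promoter summits made up 49.2% ± 0.52 of the top 5000. Sequence that meets the rule, called eligible sequence below, covers 47.3 of 133.9 Mb of the assembled arms (35.3%), mappable or not. The members therefore took up 18.7% of summits in 35.3% of the sequence.

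**Figure D2:**
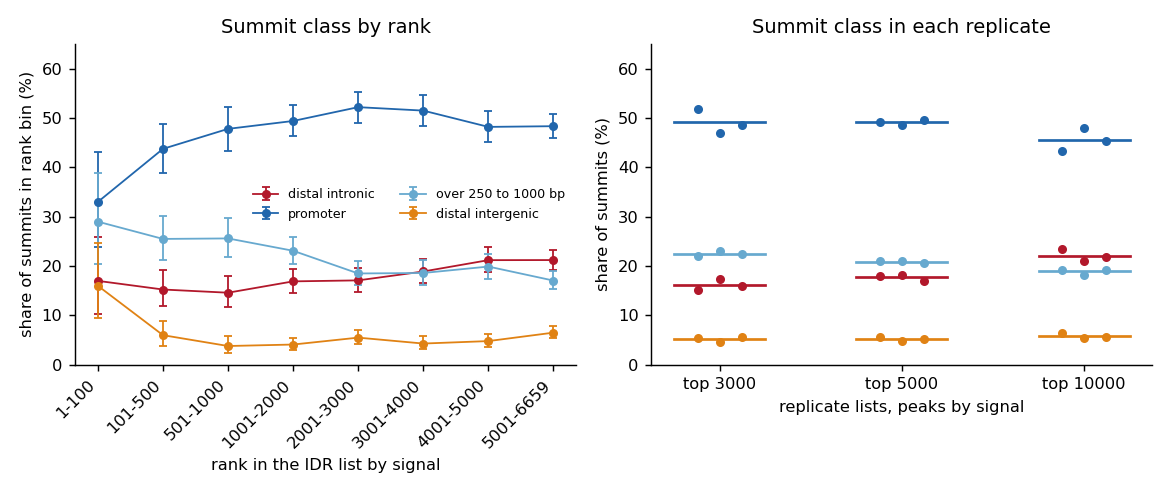
Left, share of IDR summits (%) in 4 classes by rank of signal, with exact binomial 95% intervals; right, the same classes in the top 3000, 5000 and 10000 peaks of each replicate (points) with their mean (lines). The distal intronic share rises from 14.6% at ranks 501 to 1000 to 21.2% at ranks 5001 to 6659, and is 17.1 to 18.1% in the top 5000 of the replicates.

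The members' class passed IDR less often than promoter peaks, and its IDR peaks were found in the replicates in a like share. Of 30000 pooled peaks 22.2% passed IDR, and of the 9488 with a distal intronic summit 1244 did (13.1%, exact binomial 95% interval 12.4 to 13.8%). Promoter peaks passed in 36.2% of cases (35.2 to 37.2%) and distal intergenic ones in 15.4% (13.9 to 16.9%). Since the IDR list is exactly the top 6659 pooled peaks by signal, this comparison is one of signal. Of all IDR peaks 90.8% lay among the top 10000 of every replicate, and of the distal intronic ones 1128 did (90.7%), a share near that background. IDR was itself drawn from these replicates, so this agreement is partly built in. Without it, 71.0 to 84.1% of the distal intronic peaks among the top 5000 of a replicate overlapped a top 5000 peak of another, against 78.6 to 85.7% of promoter peaks. Summits of members were placed a median of 26, 12 and 27 bp away in replicates 1, 2 and 3.

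Distal intronic summits crowded towards start sites even beyond the 1000 bp limit. Per Mb of eligible sequence there were 62.3 summits (exact Poisson 95% interval 56.5 to 68.5) at 1001 to 2000 bp from the nearest start site, 35.7 at 2001 to 5000, 20.4 at 5001 to 10000, 13.4 at 10001 to 20000 and 5.04 (3.23 to 7.50) at 20001 to 50000 bp. None of the 3.63 Mb farther away held a member, which allows up to 1.02 per Mb. The median distance was 2822 bp. Across the threshold itself, the 64 members at 1001 to 1100 bp had a median signal of 604. The 82 near summits inside coding genes at 901 to 1000 bp had one of 622. The most remote was in mamo, which encodes a zinc finger protein of the germ line, at X:13889300-13889490, with its summit 43527 bp from any start site, a signal of 474 and rank 3510. The next were in mgl, a receptor of the LDL receptor family, at 38446 bp, and in Fur1, a gene for a furin protease, at 34505 bp with a signal of 2280. The median signal was 525 in the nearest bin, 367 at 10001 to 20000 bp and 421 in the farthest bin with members.

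First introns held most members. A first intron was counted as one that is first in any coding transcript, and 852 of the 1244 summits lay in one. That is 44.6 per Mb of eligible first intron sequence (exact Poisson 95% interval 41.6 to 47.7), against 13.9 per Mb (12.6 to 15.4) for the 392 in other introns, a ratio of 3.20. The ratio was 3.51, 3.69 and 3.29 in the top 5000 of replicates 1, 2 and 3 (mean 3.49 ± 0.20, SD, n = 3). First introns start near a start site, so the ratio was also taken within bins of distance, which were chosen after seeing the data. There it was 3.11 at 1001 to 2000 bp, 2.07 at 2001 to 5000 bp, 1.58 at 5001 to 10000 bp, 2.22 at 10001 to 20000 bp and 2.66 at 20001 to 50000 bp, the last from 10 and 14 summits. In the top 5000 of the replicates the means in these bins were 3.03 ± 0.38, 2.26 ± 0.099, 1.73 ± 0.18, 2.24 ± 0.23 and 4.31 ± 0.83 (SD, n = 3). First introns thus carried more summits per Mb in every bin.

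**Figure D3:**
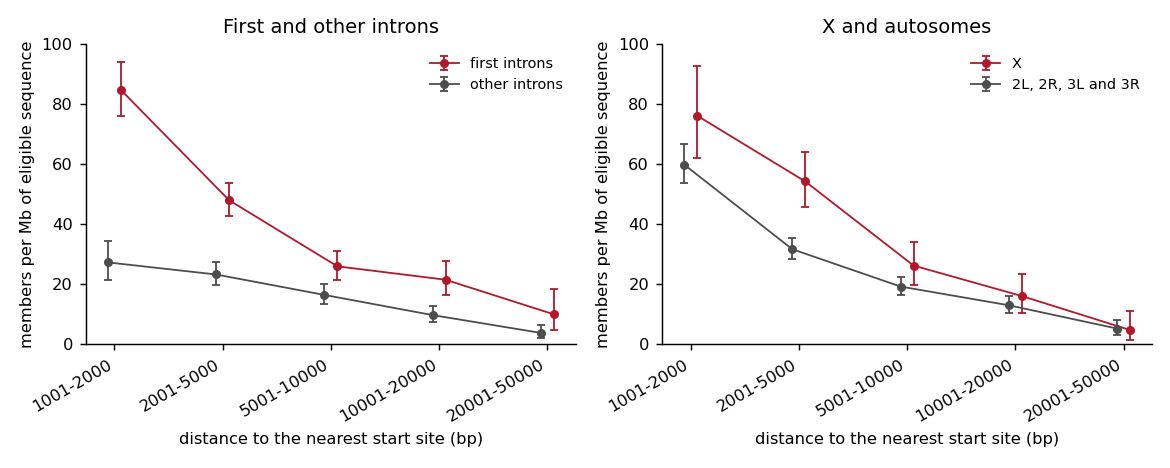
Members per Mb of eligible sequence (y) against the distance to the nearest start site (x), for first and other introns (left) and for X and the large autosome arms (right), with exact Poisson 95% intervals. Rates fall with distance in all 4 groups, from 84.7 to 9.91 per Mb in first introns and from 27.2 to 3.73 per Mb in other introns.

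Members, like IDR summits of all classes, were denser on the X chromosome than on the autosomes. X held 325, or 37.2 per Mb (33.3 to 41.5), against 917 on 2L, 2R, 3L and 3R, or 24.1 per Mb (22.6 to 25.7), a ratio of 1.54. The replicates gave 1.69, 1.65 and 1.54 (mean 1.63 ± 0.080, SD, n = 3). The single arms lay at 24.4 per Mb on 2L, 26.2 on 2R, 25.4 on 3L and 21.5 on 3R, whose intervals, unlike that of X, overlapped each other. Over the whole arms, IDR summits of all classes stood at 61.2 per Mb on X and at 45.04 to 49.91 per Mb on the large autosome arms. Within distance bins the ratio of members was 1.27, 1.71, 1.36, 1.24 and 0.905 from the nearest to the farthest, the last from 5 summits on X. The intervals of X and the autosomes overlapped in every bin but that of 2001 to 5000 bp. In the top 5000 of the replicates the means in these bins were 1.30 ± 0.048, 1.71 ± 0.28, 1.75 ± 0.20, 1.40 ± 0.20 and 0.734 ± 0.22 (SD, n = 3). Chromosome 4, a small and largely heterochromatic chromosome, held 2 members, or 3.94 per Mb (0.477 to 14.2). Females carry X and the autosomes in equal copy number, and the cause of the higher density on X was not tested.

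Few members lay in repeats, and many had a close neighbour. Only 1 member (0.0804%) lay in an annotated transposable element, against 7.33% of eligible sequence, and the share was also low over all IDR summits, at 12 of 6659 (0.180%). How reads in repeats were placed is not stated. Of the members, 483 (38.8%) had another IDR summit within 1 kb and 949 (76.3%) within 5 kb, with a median of 1483 bp to the nearest. The same shares over all IDR summits are not given, so close neighbours are not shown to be particular to the members. Peaks of the whole list also shared regions, with 6659 in 5579 merged regions, against 1244 members in 1077.

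The 1244 summits lay in 659 of 13945 protein-coding genes (4.73%), which is 9.62% of the 6852 coding genes with any eligible sequence. Of these hosts 374 held 1 member, 148 held 2 and 137 held 3 or more. The 48 genes with 5 or more held 334 members, or 26.8% of all. Among genes with over 50 kb of eligible intron 40.8% were hosts, against 13.1% of those with 1001 to 5000 bp, so longer genes were hosts more often. Per Mb, in contrast, the shorter ones held more, with 73.8 members per Mb at 1001 to 5000 bp and 10.6 per Mb above 50 kb, except that genes with up to 1000 bp held 18.7 per Mb.

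Genes of the ecdysone response were among those with most members. Eip74EF, an ETS factor gene induced by the moulting hormone ecdysone (3L:17558672-17619325), held 16 in 12 merged regions, with signals of 277 to 1010. Eip75B, a nuclear receptor gene of the same response (3L:17950953-18064696), held 14, with signals of 302 to 1091. Neither held one of the strongest peaks, as the best member of each was 229th and 205th of the 1244 by signal. Both of these were still above the third quartile of member signal, 805.

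The other hosts with most members reached higher signals. Mnt, the bHLH antagonist of Myc (X:3671801-3701672), held 15 at 688 per Mb of its eligible intron, with signals of 365 to 2999. The gene psq, which encodes a BTB factor that binds GA repeats (2R:10557888-10617280), held 14, with signals of 290 to 5719. Raf, the kinase between Ras and MEK (X:2295466-2343870), held 11 in 7 regions, with signals of 266 to 6923. Tlk (X:3720007-3789770) also held 11, in 5 regions, with signals of 327 to 11958. The corepressor gene sbb (2R:18278198-18357296) held 11, with signals of 266 to 2439, and Pdp1, a bZIP activator of Clk (3L:7811458-7867369), held 10, with signals of 294 to 3710. Within each of these genes the signal of the strongest member was thus several times that of the weakest.

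Host genes carried promoter summits more often than other genes. Promoter summits, as defined above, were present at 24.4% of all coding genes. Of the 659 hosts 339 did (51.4%, exact binomial 95% interval 47.6 to 55.3%), against 28.7% (27.6 to 29.8%) of the 6193 genes with eligible sequence and no member. Split by the length of eligible sequence, the share was 44.6% in hosts and 27.3% in other genes at 1001 to 5000 bp, 47.9 and 22.3% at 5001 to 10000 bp, 55.2 and 27.5% at 10001 to 20000 bp, 62.0 and 19.2% at 20001 to 50000 bp and 51.3 and 11.5% above that. In the shortest genes, up to 1000 bp, 5 of 17 hosts (29.4%) and 31.2% of the others had one. Pdp1 was the 1 gene of the 8 with most members that had no promoter summit.

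Gene lists were compared by members per Mb of eligible sequence in their genes, beside 26.3 per Mb over all eligible sequence. The intervals treat summits as independent, although neighbouring ones can share a region, so they are too narrow where summits cluster. Factors with bHLH domains held 48 members in 11 of 43 genes, or 138 per Mb (exact Poisson 95% interval 102 to 183), led by crp, Clk, sima and Mnt. Of the 48, 15 were in Mnt and 9 in crp. Ecdysone response genes held 65 in 12 of 22 genes, or 118 per Mb (91.5 to 151). Of the 65, 16 were in Eip74EF and 14 in Eip75B. The strongest of the list was in br, a BTB factor with a signal of 2497, and this peak also lay within Mur2B. Next were the nuclear receptor genes Hr4 and EcR, the hormone's own receptor, with 1341 and 1327, and the coactivator gene tai with 1123. Nuclear receptors, which share several of these genes, held 38 in 9 of 21 genes, or 99.8 per Mb (70.6 to 137), and 14 of the 38 were in Eip75B. BTB and GAGA factors held 38 in 9 of 17 genes, or 87.1 per Mb (61.6 to 120), led by ken, Trl, lola and psq. Of these 38, 14 were in psq.

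Clock, insulin and chromatin genes were also dense. Clock genes held 17 in 4 of 16 genes, or 144 per Mb (83.8 to 230), all in genes for transcription factors of the clock, namely Clk, its activator Pdp1, and the repressors vri and cwo with signals of 931 and 528. Pdp1 held 10 of the 17 and vri 5. Genes of insulin, TOR and fat storage held 20 in 9 of 26 genes, or 128 per Mb (78.0 to 197). Their strongest, besides sima, were the insulin receptor gene InR with 5927, REPTOR, a factor held back by TOR, with 644, and foxo, the forkhead factor that insulin restrains, with 587. Polycomb and trithorax group genes held 11 in 4 of 26 genes, or 162 per Mb (81.0 to 290), in trx, osa, ph-p and kis with signals of 2205, 2201, 855 and 454. The first pair of these encode activating trithorax group proteins and ph-p a Polycomb protein. This rate rests on 0.0678 Mb, the least sequence of the lists above the mean.

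Signalling and muscle genes were closer to the mean. EGFR and Ras genes held 22 in 7 of 23 genes, or 64.7 per Mb (40.6 to 98.0), and 11 of the 22 were in Raf. The others with the highest signal were aop, a repressor at the end of the pathway, the secreted inhibitor aos and the chaperone of ligands S, with 557, 511 and 469. Muscle genes held 11 in 4 of 22 genes, or 56.0 per Mb (27.9 to 100), in Tm1, Mef2, Zasp52 and Prm with 1131, 660, 440 and 408. Notch genes held 11 in 7 of 21 genes, or 43.9 per Mb (21.9 to 78.5), with the receptor N at 1399, its coactivator mam at 1233, the ligand Delta at 903 and fng, which modifies the receptor, at 544. Wnt, Hedgehog and BMP genes held 18 in 8 of 41 genes, or 30.4 per Mb (18.01 to 48.02), with the BMP genes shn, Dad and tkv at 977, 956 and 528 and the Hedgehog receptor ptc at 364. The Notch and Wnt intervals include the mean of all eligible sequence.

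Genes of axon guidance and ion channels, many of them long, held fewer members per Mb. Axon guidance and adhesion genes held 21 in 13 of 47 genes, or 9.82 per Mb (6.08 to 15.01). All genes with over 50 kb of eligible sequence held 10.6 per Mb. Those with 20001 to 50000 bp, where the median gene of the list falls, held 25.9 per Mb. The axon guidance hosts included Dscam1, the phosphatases Lar and Ptp10D with 3420 and 1024, and the adhesion gene Fas2 with 1297. Ion channels and transmitter receptors held 2 in 2 of 42 genes, or 1.59 per Mb (0.192 to 5.74), which were the potassium channel gene KCNQ with 1207 and the sodium channel gene NaCP60E with 347. Homeodomain factors held 13 in 8 of 53 genes, or 14.3 per Mb (7.62 to 24.5), although hth and Ubx had peaks among the 15 strongest. In zfh1 and the Hox gene Abd-B the best signals were 1296 and 645.

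Female germline genes held 5 in 4 of 19 genes, or 17.2 per Mb (5.57 to 40.03). They were bru1 and orb, which encode translational regulators, the sex determination gene Sxl and the translational repressor cup, the first 3 with 2018, 1779 and 1064. The 179 chemosensory receptor genes held none in 0.146 Mb, which allows up to 25.2 per Mb, and thus a rate just below that of all eligible sequence. Cytosolic ribosomal protein genes, of which 6 of 92 had any eligible sequence, could not be assessed. Since members per Mb varied with gene length over all genes, and the lists differ in length (a median of 30.04 kb of eligible sequence per gene in the axon guidance list and 0.741 kb in the bHLH list), the part of length in these rates was not tested.

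**Figure D4:**
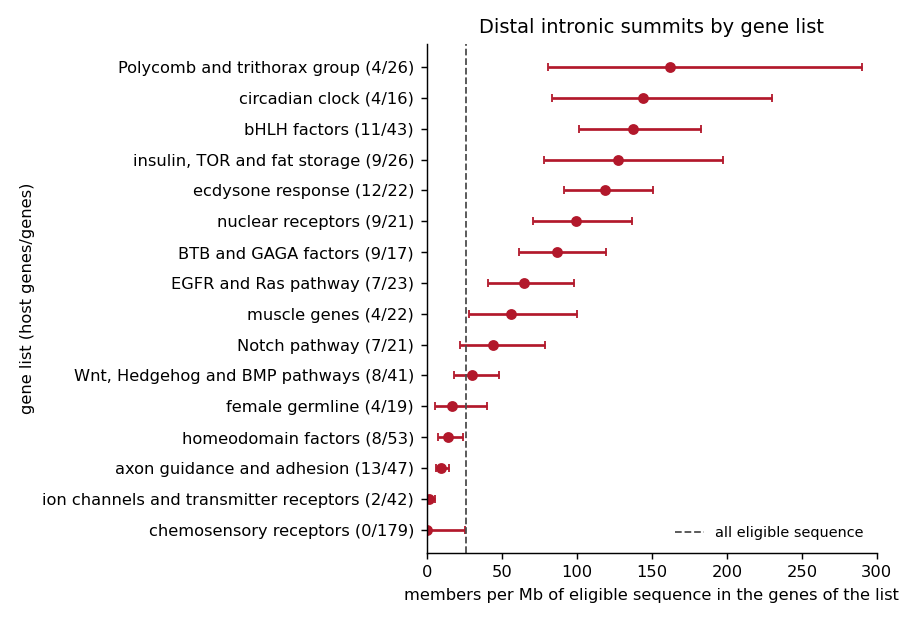
Members per Mb of eligible sequence (x) in the genes of 16 lists (rows, with host genes and genes in brackets), with exact Poisson 95% intervals; the dashed line is the rate over all eligible sequence, 26.3 per Mb. The ribosomal list is left out for lack of eligible sequence. The lists from the Polycomb and trithorax group down to the Wnt, Hedgehog and BMP pathways lie above the line, and female germline genes, homeodomain factors, axon guidance genes, ion channels and chemosensory receptors below it.

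Over all members, GA repeats and G runs were more frequent at the summits than in their flanks. The GA repeats were as frequent or more so at near summits as at members. Their excess over flanks was small on X, as given below. Words were counted in windows of the summit and the 50 bp on either side of it, and in windows of the same length centred 300 bp to either side, on both strands. GAGAGAG, which GAGA factor binds, was present at 89 of 1244 members (7.15%, exact binomial 95% interval 5.78 to 8.73%), in 3.74% of their flanks, at 4.23% of promoter summits, at 8.04% of near summits and at 5.86% of all IDR summits. In replicates 1, 2 and 3 it was present at 5.76, 9.48 and 8.44% of the distal intronic summits of the top 5000 (mean 7.90% ± 1.92, flanks 4.47% ± 0.36, SD, n = 3). The related word GAGCGAGA, which overlaps it in long repeats, was present at 57 members (4.58%, flanks 1.61%, promoters 2.39%, near summits 4.62%, all IDR summits 3.62%). Both words were higher at summits than in flanks in 3 of 3 replicates (exact sign-flip permutation test, two-sided p = 0.25, the smallest possible).

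The G run word AGGGGAAA was rarer and more sharply placed. It was present at 52 members (4.18%, 3.14 to 5.45%), in 1.05% of flanks, at 1.66% of promoter summits, at 3.05% of near summits, at 9.60% of distal intergenic summits and at 2.94% of all IDR summits. In the replicates it was present at 4.55, 4.74 and 5.28% (mean 4.85% ± 0.38, flanks 0.901% ± 0.031, SD, n = 3). GAGGGGAA, which shares most of its letters, was present at 30 members (2.41%, flanks 0.523%, promoters 1.16%, all IDR summits 1.76%). By position, AGGGGAAA had 0.498 matches per kb in the 50 bp before the summit and 0.338 in the 50 bp after it, and 0.0643 per kb in the bin that starts 500 bp before it. GAGAGAG was spread more widely, with 1.69 and 1.64 matches per kb beside the summit and 2.03 per kb in the bin that starts 150 bp before it, overlapping matches in a repeat being counted singly.

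In groups formed after the values were seen, the G run words (AGGGGAAA, AAGGGGAA or GAGGGGAA) were present at 88 members (7.07%, 5.71 to 8.64%) and in 1.45% of flanks. At promoter summits they were present in 2.48% (1.98 to 3.08%), at near ones in 5.36% (4.22 to 6.70%) and at distal intergenic ones in 11.0% (7.95 to 14.8%). In the replicates the means were 7.59% ± 0.34 at distal intronic, 2.67% ± 0.053 at promoter and 12.8% ± 1.46 at distal intergenic summits (SD, n = 3), so the 3 classes did not overlap. The GA words (GAGAGAG or GAGCGAGA) were present at 118 members (9.49%, 7.91 to 11.3%), in 4.74% of flanks, at 5.61% of promoter summits and at 11.3% (9.67 to 13.1%) of near summits. On X the GA words were present at 21 of 325 members (6.46%, 4.04 to 9.71%) and in 5.23% of flanks. On the autosomes they were present at 97 of 919 (10.6%, 8.64 to 12.7%) and in 4.57% of flanks. Just 11 members, all autosomal, held both kinds. Among the 100 strongest members 20 held a G run word and 22 a GA word, as did 2 and 14 of their 200 flank windows. With the members in 4 groups of 311 by signal, AGGGGAAA was present at 8.04, 3.22, 4.50 and 0.965% from the strongest to the weakest, so that the order was not steady in the middle.

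DRE and CAACACTG, which were more frequent at promoter summits than in their flanks, were not so at members of the IDR list. The DRE motif TATCGATA, which DREF binds, was present at 3 members (0.241%) and in 0.322% of their flanks, against 4.20% of promoter summits and 2.21% of all IDR summits. CAACACTG was present at 4 members (0.322%) and in 0.362% of their flanks, against 5.12% of promoter summits and 2.91% of all IDR summits. In the replicates DRE was present at 0.0737% ± 0.064 of distal intronic and 4.15% ± 0.18 of promoter summits (SD, n = 3; exact sign-flip permutation p = 0.25). AGTGTTGG was present at 8 members (0.643%, flanks 0.161%, all IDR summits 1.89%) and at 3.31% of promoter summits, and CANCNCTA at 44 members (3.54%, flanks 1.97%, all IDR summits 6.02%) and at 8.80% of promoter summits. Both were higher at members than in flanks in 3 of 3 replicates. The 5-base core CGATA was as common at members (11.7%) as in their flanks (12.3%), and reached 23.8% at promoter summits and 17.6% of all IDR summits.

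**Figure D5:**
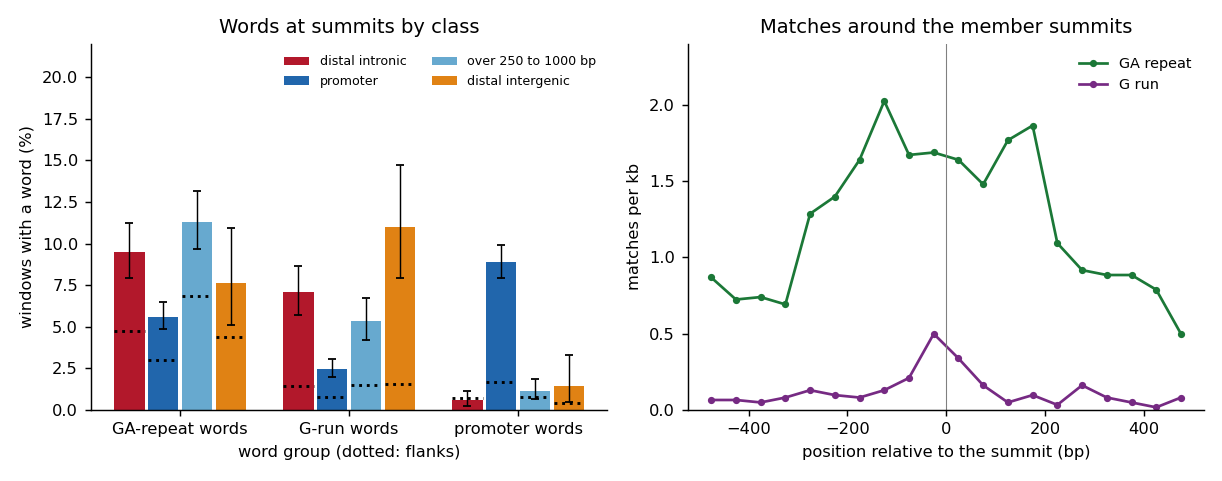
Left, share of summit windows (%) with a GA-repeat word, a G-run word or a promoter word in 4 summit classes, with exact binomial 95% intervals and the share in flanks (dotted); right, matches per kb of the 7-base GA repeat and of the 8-base G run in 50 bp bins around the member summits. The G run peaks at the summit, at 0.498 per kb, and the promoter words stand at 8.89% of promoter windows and 0.563% of member windows.

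Most other motifs differed less between members and flanks. AGNGGGC was present at 6.99% of members, 4.38% of flanks and 5.02% of all IDR summits. The E-boxes CACGTG (1.69%, flanks 1.33%, all IDR summits 1.32%) and CAGCTG (5.63%, flanks 4.18%, all IDR summits 5.99%) were not higher than their flanks in every replicate. Nor was TAATTA, a core that homeodomains bind (5.71%, flanks 6.23%, all IDR summits 5.81%). Lower than flanks in every replicate were CCGGAA (1.21%, flanks 1.69%, all IDR summits 2.28%), CATTCC (3.54%, flanks 4.22%, all IDR summits 3.83%) and GAANNTTC (2.33%, flanks 2.85%, all IDR summits 2.46%). The mean GC content was 42.0% at members, 40.8% in their flanks and 39.8% over eligible sequence. In replicate 1 alone the summits were lower in GC than their flanks (40.5 and 41.4%).

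When all words of 8 bases were ranked by their excess at members on 2L and 2R, the first 10 were mostly forms of the same 2 kinds of sequence. Shown on the other arms, with 837 members, GAGCGAGA was present at 4.18% (flanks 1.79%), AGGGGAAA at 3.94% (1.14%) and AAGGGGAA at 3.35% (0.717%). The first of the ranking, AAAGAGAG, was present at 2.63% there against 2.69% of flanks, so its excess did not carry over.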

How the data were processed

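The deposited files are peak lists from 3 biological replicates of 1 group, and the lists on the dm6 build were used. The signal of each peak is the authors' value and its scaling is not stated. The −log10 q-value deposited by the authors was read and not used. Derived files deposited with the series state that 30000 peaks were called on each replicate and on the pool with a control alignment. The names of the aligner and peak caller were not given in the sources used here. Read depth is unknown, so intervals cover the counting of summits, genes or windows only. Where replicates came from is not stated beyond the word biological.

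The IDR list was tested to be the top 6659 pooled peaks by signal. Start sites (23581), exons, introns and transposable elements came from Ensembl release 115 on the same assembly (Release 6), with 13945 coding genes on the 6 assembled arms. A peak was found in a replicate where at least 50% of either peak was covered, and took the rank of the strongest such peak. Intervals are exact binomial, exact Poisson or, for medians, order-statistic, at 95%, and treat summits as independent. Differences between classes within replicates used the exact sign-flip permutation test over 3 replicates. There is no second group, so no test between conditions was made.

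In all 17 gene lists and 30 motifs were counted, and 3 of 443 listed symbols matched no gene. Named genes were the hosts of the 15 strongest members, the 8 hosts with most members and up to 4 hosts per list with the highest signal; other genes named were chosen after their values were seen. The members and lists were chosen with earlier results of these data known. Alternatives covered the distance limit, merged regions, strong peaks, overlap rule, list length, window, flank and each replicate left out. The word search, the overlap rule and the assignment of summits to classes were tested on simulated data. The intervals and the permutation test were not. The tools were pandas 2.3.3, scipy 1.17.1, numpy 2.4.6 and matplotlib 3.10.9 under Python 3.11.15.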

Additional observations from a re-analysis of the deposited data

How the results depend on the processing

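Of 94 alternative values for 12 results, 53 moved by less than their interval, the spread between replicates or, for host genes, 1.5 times, 36 moved by more and 5 changed direction. Both other distance limits moved the distal intronic share, its mean over replicate lists and the share of pooled peaks that passed. They also moved the median signal and the first intron ratio. The share found in every replicate and the excess of GAGAGAG, GAGCGAGA and AGGGGAAA over flanks did not move. With over 500 bp in place of 1000, host genes numbered 964 against 659, within the 1.5 times allowed. The distal intronic share was then 27.0% and the mean over replicate lists 26.4%. The share of pooled peaks that passed was 15.8%, the median signal 480 and the first intron ratio 3.82. With over 2000 bp these 5 values were 12.3%, 11.2%, 11.7%, 429 and 2.66. The X ratio was then 1.67 and host genes numbered 429. In the strongest 1000 peaks the share was 15.1%, the median signal 2360, the share found in every replicate 100%, the first intron ratio 4.09, the X ratio 1.68, the number of hosts 124 and the excess of AGGGGAAA over flanks 8.28 percentage points. Over all members that excess was 3.14 points, and 4.30 with windows of 100 bp to either side. The mean over replicate lists was 16.2% for the top 3000 and 22.1% for the top 10000, and 52.5% of members were found when the top 5000 of each replicate were searched. Within distance bins, added after seeing the data, the first intron ratio was 2.07, 1.58, 2.22 and 2.66 beyond 2000 bp, and the X ratio was 1.27, 1.71, 1.36, 1.24 and, in the farthest bin, 0.905, which is below 1. The median signal without each replicate was 469 to 483. DRE, with a difference of -0.0804 points between summits and flanks, gave 0.245 with over 2000 bp, 0.0475 with 1 summit per region, 0.161 with the wider windows and 0.121 with flanks 500 bp away. The causes were not tested. Depth is unknown. No paired analysis was possible because there is 1 group of samples, so none could be paired across groups; differences between classes of summits were taken within replicates.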
